A study of Mus musculus with 4 samples.

Results

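Interferon-stimulated effector genes were examined in 4 tumours of the mammary gland from MMTV-R26Met mice, here called tumours 1 to 4. The part consists of 35 genes out of 28440 rows of the deposited count table, chosen by gene symbol: antiviral and regulatory proteins induced by interferon, other than the OAS, nucleic acid sensor, IRF/STAT, GBP/IRG and MHC families. All 35 symbols matched 1 row each, and all 35 passed the filter on low counts. In MMTV-R26Met mice, used to model triple-negative breast cancer, the mouse mammary tumour virus promoter, active mainly in mammary epithelium, drives the Cre recombinase, which switches on a transgene of the receptor Met at the Rosa26 locus. All 4 tumours carry the same genotype, and no untreated, normal or control tissue is among them. The labels give no treatment, age or time, and do not tie tumours to individual mice, so the spread and the p-values describe these 4 tumours only.

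Interferons of type I (alpha and beta) and type III bind their receptors and act through the kinases Jak1 and Tyk2 on transcription factors that include Stat2 and Irf9. These bind the interferon-stimulated response element, a DNA motif built from repeats of GAAA, ahead of its target genes. Type II interferon (gamma) acts mainly on a site with the letters TTCNNNGAA. The effectors block virus entry, copying, translation or release, tag proteins with the ubiquitin-like protein Isg15, or damp the response itself. In tumours such genes can be expressed by the cancer cells as well as by stromal and immune cells. In bulk tissue, fewer cells of a type and less RNA per cell cannot be told apart.

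Promoter letters are shown first because the members were chosen as genes induced by interferon. A link between these letters and the levels in the tumours was not tested. RefSeq promoter windows on GRCm38.p6, 250 bases before to 50 after a transcription start, were found for 27 of the 35 genes (31 windows). The motif searched was GAAA, any 2 bases and GAAA again, on either strand. It occurred in 9 of 27 members (33.3%) and in 3.99% of all 27025 genes with a window. The 9 were Isg15, Rsad2, Ifit1, Ifit3, Ifit3b, Bst2, Ifitm3, Trim21 and Trim30a. The letters TTCNNNGAA, which read the same on both strands, occurred in 5 of 27 members (18.5%) and in 9.55% of all genes. Those 5 were Bst2, Ifi35, Ifit2, Ifitm3 and Isg20. Matches may overlap one another, and a match is a description of letters only. The stretches below, 5′ to 3′ on the gene's own strand, are 5 examples, with matches to the GAAA motif, or to its reverse complement with TTTC on both sides, in capitals.
Isg15, chr4:156200838-156200958, minus strand: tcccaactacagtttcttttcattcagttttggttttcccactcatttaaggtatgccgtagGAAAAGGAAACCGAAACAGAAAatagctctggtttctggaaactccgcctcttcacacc
Rsad2, chr12:26456472-26456592, minus strand: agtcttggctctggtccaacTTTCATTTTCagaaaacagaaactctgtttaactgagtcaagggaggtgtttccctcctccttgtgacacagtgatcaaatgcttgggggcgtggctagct
Ifit1, chr19:34640749-34640869, plus strand: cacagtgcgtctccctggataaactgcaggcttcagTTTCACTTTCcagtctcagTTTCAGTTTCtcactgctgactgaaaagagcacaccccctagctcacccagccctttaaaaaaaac
Ifit3, chr19:34583329-34583449, plus strand: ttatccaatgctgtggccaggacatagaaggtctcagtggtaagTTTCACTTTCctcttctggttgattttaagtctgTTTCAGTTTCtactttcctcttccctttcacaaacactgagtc
Ifit3b, chr19:34607757-34607877, plus strand: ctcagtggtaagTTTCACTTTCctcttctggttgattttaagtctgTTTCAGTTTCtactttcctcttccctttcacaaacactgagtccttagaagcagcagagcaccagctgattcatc
In Isg15 the motif occurred in 3 overlapping copies that began 78, 72 and 66 bases before the start. Ifit1 held matches at 104 and 85 bases, Rsad2 at 120 bases, Ifit3 at 156 and 122 bases and Ifit3b at 188 and 154 bases before it. The starts and stretches used for Ifit3 and Ifit3b lie inside their annotated genes (34583119 to 34588982 and 34607530 to 34613403). The windows of Ifit3 and Ifit3b shared an identical run of 169 bases that holds both of their matches.

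Total counts per library in tumours 1 to 4 were 42809015, 35220504, 36885892 and 41756363, and levels are given as CPM (counts scaled to library size) after TMM scaling. No library was a copy of another, since chi-square over genes was 132 to 387 per degree of freedom between any pair, and all 4 were used as separate samples. The epithelial markers Epcam, Krt8, Krt18, Cdh1 and Cldn7 were all expressed, with summed levels from 2390 CPM in tumour 1 to 3663 CPM in tumour 4. Each of the 15808 genes that passed the filter was tested with edgeR for more variation between tumours than genes of similar level showed (Benjamini-Hochberg adjusted p, threshold 0.05). Of these, 574 (3.63%) passed.

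As a group the effectors had their highest levels in tumour 4 and their lowest in tumour 3. Of the 35 members, 29 were highest in tumour 4, against 28.5% of all genes tested. In 34 members the highest tumour was 4 or 2, against 47.4% of all genes. Tumour 3 was lowest for 30 members, against 27.7% of all genes. The full order of tumours 4, 2, 1 and 3, from high to low, was taken by 24 members, against 8.12% of all genes. Relative to each gene's mean over the tumours, the median member stood at -0.19, 0.38, -0.94 and 0.87 on the log2 CPM scale in tumours 1 to 4. The members together held 0.188, 0.282, 0.121 and 0.354% of all counts in tumours 1 to 4. The 95% exact binomial interval, which covers counting error only, was 0.120 to 0.122% in tumour 3 and 0.352 to 0.356% in tumour 4. That order of tumours was visible in earlier results of these data and was given here as a description.

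**Figure D1:**
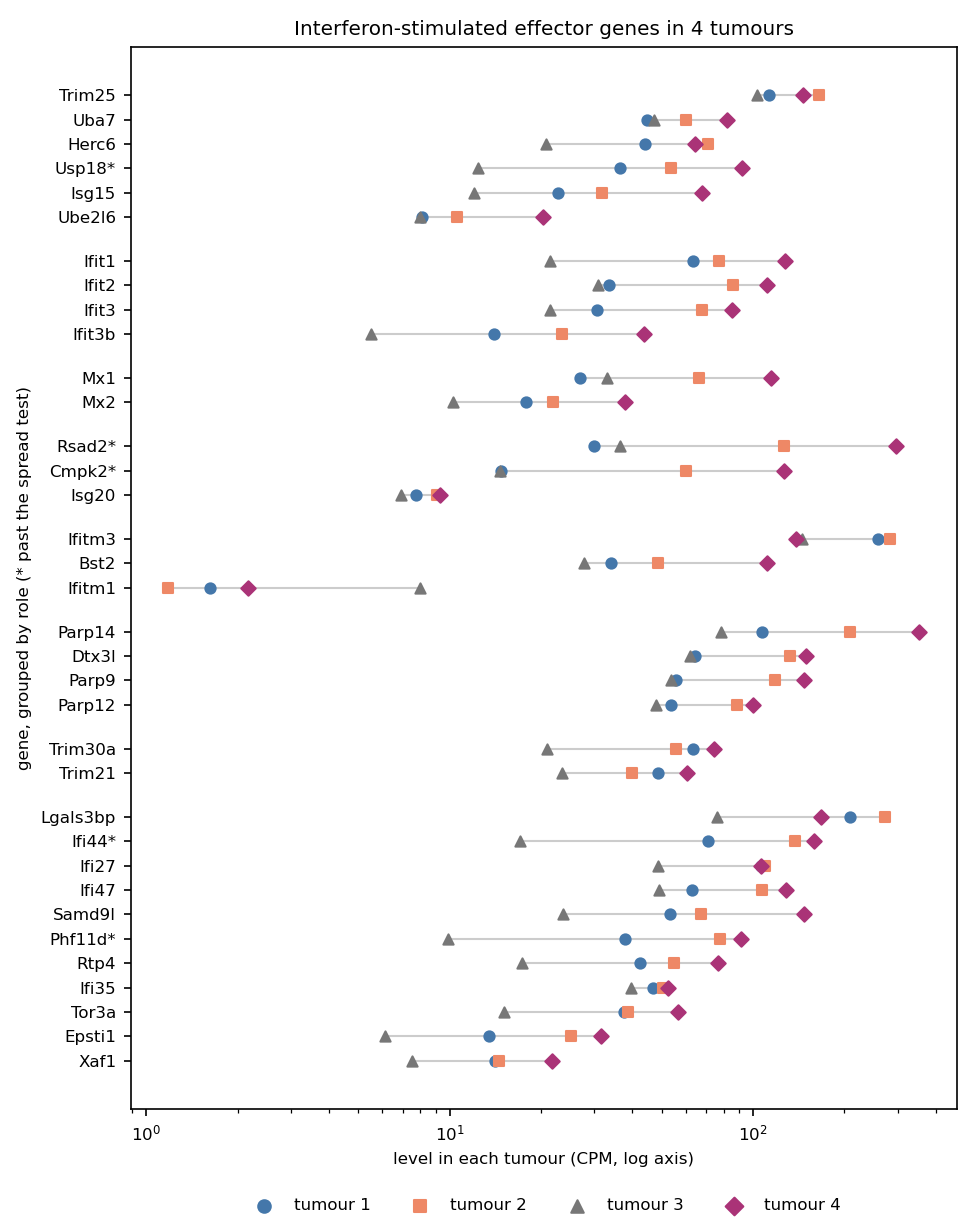
Level of each of the 35 genes in each tumour (CPM, log axis), grouped by role, with 1 point per tumour and a grey line from the lowest to the highest. Tumour 4 is highest for 29 genes, all but Ifi27, Ifitm1, Ifitm3, Herc6, Trim25 and Lgals3bp. Tumour 3 is lowest for 30, all but Rsad2, Mx1, Ifitm1, Ifitm3 and Uba7.

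Single genes varied by 3.67-fold at the median member, from the lowest to the highest tumour (log2 1.88, range 0.40 to 3.30), against 1.72-fold at the median of all genes tested. A spread over 2-fold was seen in 31 of 35 members, against 36.1% of all genes. Past the test were 5 of 35 members, namely Rsad2, Cmpk2, Ifi44, Phf11d and Usp18, against 3.63% of all genes. At an unadjusted p under 0.05 there were 17 members, against 8.74% of all genes. DESeq2's rule for dispersion outliers marked 0 members, against 0.576% of all genes. The call of Rsad2 held whichever tumour was left out, though only just without tumour 4 (edgeR adjusted p = 0.0481). Usp18 no longer passed when tumour 2, 3 or 4 was omitted (edgeR adjusted p = 0.0662, 1.00 and 0.274), nor did Ifi44 and Phf11d without tumour 3 (1.00 for both) or Cmpk2 without tumour 4 (0.0812). Members past the test then numbered 4, 2 and 3 without tumours 2, 3 and 4, against 2.52, 2.58 and 2.29% of all genes.

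**Figure D2:**
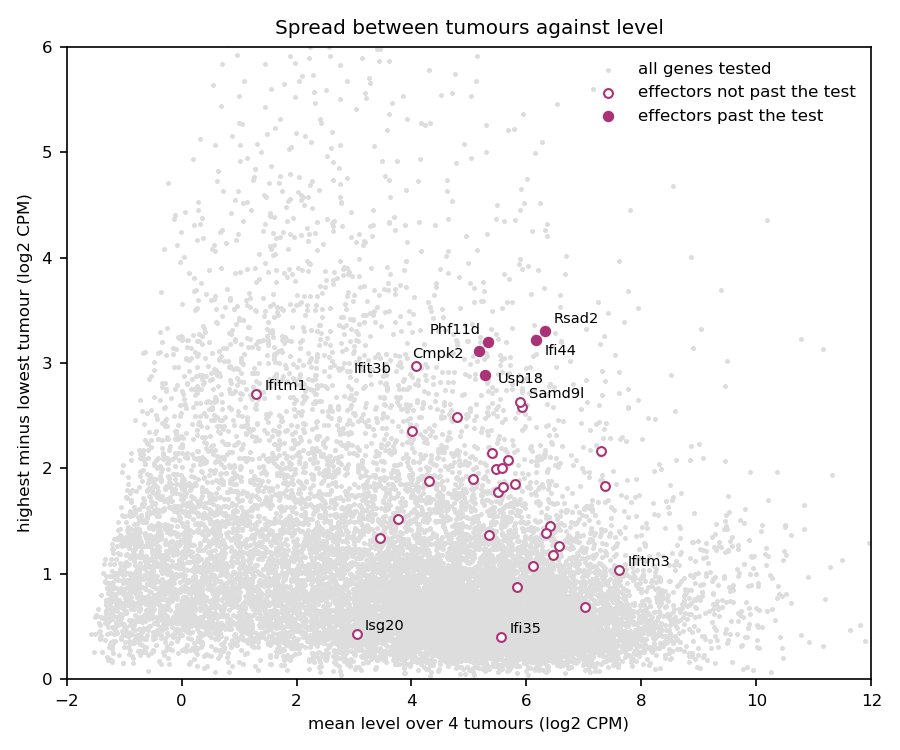
Difference between the highest and the lowest tumour (log2 CPM) against the mean level over the 4 tumours (log2 CPM), with all 15808 genes tested in grey and the effectors in purple, filled where they passed the test. The 5 filled points lie at differences from 2.89 to 3.30, and genes beyond the axes are not drawn.

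Among the enzymes that act on nucleotides and RNA, both genes of a neighbouring pair on chromosome 12 had steep differences. Rsad2 (viperin, Entrez gene 58185), which converts CTP into a chain terminator of viral polymerases, had 29.8, 126, 36.5 and 295 CPM in tumours 1 to 4. It was high in tumours 4 and 2 and low in tumours 1 and 3, with a 9.90-fold range (edgeR adjusted p = 8.91e-05). Cmpk2 (Entrez gene 22169), a mitochondrial nucleotide kinase, had 14.8, 60.3, 14.6 and 127 CPM. It followed the same pattern, with tumours 1 and 3 nearly equal and an 8.67-fold range (edgeR adjusted p = 0.000219). The genes lie back to back, Rsad2 at 26442743 to 26456452 on the minus strand and Cmpk2 at 26469117 to 26479837 on the plus strand, 12.7 kb apart. The ratio of Rsad2 to Cmpk2, which share no stretch of 100 bases, stayed between 1.01 and 1.32 on the log2 CPM scale in the 4 tumours. Isg20, a 3′ exonuclease, had 7.76, 9.09, 6.93 and 9.33 CPM and did not pass (edgeR adjusted p = 1.00). Its levels lay within a 1.35-fold range.

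Isg15 and the enzymes that attach it to proteins or remove it varied to different degrees. Isg15 itself had 22.7, 31.8, 12.1 and 68.0 CPM in tumours 1 to 4 and did not pass (edgeR adjusted p = 0.159). Tumour 4 had the most and tumour 3 the least Isg15. Usp18 (chromosome 6, 121245906 to 121270917), which removes Isg15 and also blocks signalling at the type I interferon receptor, had 36.5, 53.7, 12.4 and 92.3 CPM (edgeR adjusted p = 0.0386). Tumour 3 was well below the others for Usp18, which had a 7.43-fold range. The activating enzyme Uba7 ran from 44.8 CPM in tumour 1 to 82.2 CPM in tumour 4, and the conjugating enzyme Ube2l6 from 8.14 CPM in tumour 1 and still less in tumour 3 to 20.3 CPM in tumour 4. Herc6, the main Isg15 ligase in the mouse, and Trim25, a ligase that also acts on the RNA sensor RIG-I, were both highest in tumour 2, at 71.2 and 165 CPM, and lowest in tumour 3, at 20.7 and 103 CPM. Of the 6 genes 1 passed. Thus Isg15 and Usp18 differed by 2.49 and 2.89 log2 units between tumours 4 and 3, and Uba7 and Trim25 by 0.80 and 0.50.

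The IFIT proteins bind viral RNA with foreign ends and block its translation, and their genes lie in a cluster on chromosome 19. All 4 members took the order of tumours 4, 2, 1 and 3, and none passed the test (edgeR adjusted p from 0.107 to 0.252). Ifit1 had 63.4, 77.2, 21.3 and 128 CPM in tumours 1 to 4. Ifit2 had 33.6, 85.7, 30.7 and 111 CPM. In tumour 1, Ifit1 was thus close to its level in tumour 2, whereas Ifit2 was close to its level in tumour 3. Ifit3 had 30.7, 68.1, 21.4 and 85.3 CPM, and Ifit3b had 14.0, 23.5, 5.53 and 43.6 CPM. These last genes are near-identical copies whose separate counts are uncertain, since 31.7% of the 100-base stretches of Ifit3 transcripts also occur in Ifit3b.

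The Mx proteins are dynamin-like GTPases that trap viral nucleoproteins, and many laboratory mouse strains carry defective copies of the genes. Mx1 had 27.0, 66.2, 33.1 and 114 CPM in tumours 1 to 4, so that tumour 1 and not tumour 3 was lowest. Mx2, its neighbour on chromosome 16, had 17.9, 22.0, 10.3 and 37.9 CPM. Neither passed the test (edgeR adjusted p = 0.170 and 1.00). The ratio of Mx1 to Mx2 was lowest in tumour 1, at 0.59 on the log2 CPM scale, against 1.59 to 1.68 in the others.

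Of the proteins that restrict viruses at membranes, Bst2 followed the group and the IFITM genes did not. Bst2 (tetherin), which holds budding virus at the cell surface, had 34.0, 48.7, 27.8 and 112 CPM in tumours 1 to 4, with tumour 4 well above the rest (edgeR adjusted p = 0.230). Ifitm3, which blocks fusion of virus with endosomes, had 258, 284, 145 and 138 CPM. It was high in tumours 1 and 2 and low in tumours 3 and 4, and had by far the highest level per transcript length of the members, 304 ± 112 CPM per kb (SD, n = 4). Next on that scale came Lgals3bp, Ifi27 and Bst2, at 63.7 ± 28.8, 63.2 ± 20.1 and 61.5 ± 42.5 CPM per kb (SD, n = 4), which differ by less than their spread. Ifitm1 was the only member with its highest level in tumour 3, with 1.62, 1.18, 7.98 and 2.17 CPM. It was also the only member over 2-fold lower in tumour 4 than in tumour 3, which 11.7% of all genes were. Neither IFITM gene passed the test (edgeR adjusted p = 1.00 for Ifitm3 and 0.410 for Ifitm1).

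The ADP-ribosylation genes shared an order of tumours but differed in how far tumour 4 stood above tumour 2. Parp9 and its partner Dtx3l, which form a complex that modifies histones and ubiquitin, start within 558 bases of each other on opposite strands of chromosome 16. Parp9 had 55.9, 118, 53.7 and 147 CPM in tumours 1 to 4, and Dtx3l had 64.3, 133, 62.1 and 149 CPM. Tumours 1 and 3 were nearly equal for both genes, and tumours 2 and 4 were higher. Their log2 ratio stayed between -0.21 and -0.02, and since they overlap and the use of strand in counting is not given in the sources used here, some reads may have been assigned to either gene. Parp14, which attaches single ADP-ribose units, had 107, 210, 78.6 and 354 CPM (edgeR adjusted p = 0.142). Parp12, of the same activity, had 53.9, 88.5, 47.7 and 100.2 CPM. Tumour 4 stood above tumour 2 by 0.75 log2 units for Parp14, and by 0.32, 0.18 and 0.17 for Parp9, Parp12 and Dtx3l. None of these 4 genes passed the test, and all 4 took the order of tumours 4, 2, 1 and 3.

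Trim21, a cytosolic antibody receptor and ubiquitin ligase, and Trim30a, a mouse gene that restrains NF-kappaB signalling, had another order for tumours 1 and 2. Trim21 had 48.8, 39.9, 23.5 and 60.7 CPM in tumours 1 to 4, and Trim30a had 63.4, 55.8, 21.0 and 74.4 CPM. Both were higher in tumour 1 than in tumour 2. With Ifitm1 they were the 3 members of 35 that were not higher in tumour 2 than in tumour 1, and 49.8% of all genes tested were higher in tumour 2.

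The remaining 11 members were all lowest in tumour 3. Ifi44, an interferon-induced cytoplasmic protein (chromosome 3, 151730922 to 151749910), had 71.1, 138, 17.0 and 159 CPM in tumours 1 to 4 (edgeR adjusted p = 0.00443). Phf11d, a PHD finger protein (chromosome 14, 59347407 to 59365490), had 38.0, 77.6, 9.88 and 91.0 CPM (edgeR adjusted p = 0.00615). In both genes tumours 2 and 4 were close to each other, tumour 1 lay between, and tumour 3 was far below. Samd9l, an antiviral inhibitor of translation, had 53.2, 67.4, 23.7 and 147 CPM and missed the threshold (edgeR adjusted p = 0.0608). Tumour 4 stood above the rest for Samd9l.

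Lgals3bp, a secreted glycoprotein that binds galectins, had 209, 272, 76.4 and 168 CPM. It and Ifi27, a small membrane protein, were highest in tumour 2, whereas the other 9 of these members were highest in tumour 4. Ifi27 had 107, 110, 48.5 and 106 CPM, so that tumours 1, 2 and 4 were nearly equal. Ifi35, which forms a complex with Nmi, differed least of all members, with 46.8, 50.7, 39.8 and 52.6 CPM.

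Ifi47, an immunity-related GTPase that the choice of members kept although it belongs to the IRG family, ran from 49.0 CPM in tumour 3 to 129 CPM in tumour 4. Rtp4, a chaperone of membrane receptors, ran from 17.4 to 76.9 CPM, and Tor3a, a torsin ATPase, from 15.1 to 56.6 CPM between the same tumours. Epsti1 ran from 6.13 to 31.5 CPM and Xaf1, a partner of the apoptosis inhibitor Xiap, from 7.53 to 21.7 CPM, again between tumours 3 and 4. In this set Ifi44 and Phf11d passed the test and the other 9 did not.

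The members differed in which tumours stood apart. Tumour 4 was over 2-fold above tumour 3 in 29 of 35 members, against 9.94% of all genes, with a median log2 difference of 1.83 over members and -0.01 over all genes. Tumour 2 was over 2-fold above tumour 1 in 8 members, against 5.5% of all genes, namely Rsad2, Cmpk2, Ifit2, Ifit3, Mx1, Parp9, Dtx3l and Phf11d. The median log2 difference between these tumours was 0.52 over members and 0.00 over all genes. Tumour 1 was over 2-fold above tumour 3 in 14 members, against 6.59% of all genes. Ifi44 and Usp18 were 2.06 and 1.55 log2 units higher in tumour 1 than in tumour 3, whereas Cmpk2 and Rsad2 differed there by 0.02 and -0.29. Tumour 4 was over 2-fold above tumour 2 in 5 members, against 5.45% of all genes: Rsad2, Cmpk2, Isg15, Bst2 and Samd9l. With 1 library on each side, such differences have no test.

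**Figure D3:**
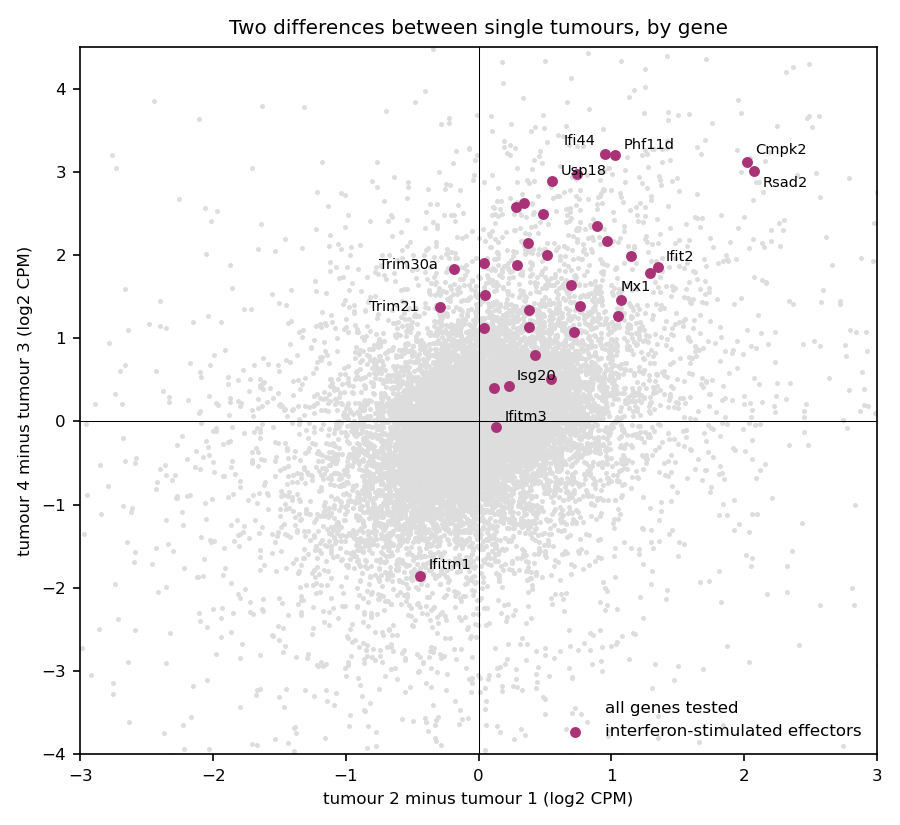
For each gene, tumour 4 minus tumour 3 (vertical) against tumour 2 minus tumour 1 (horizontal), both in log2 CPM, with all genes tested in grey and the 35 effectors in purple. Rsad2 and Cmpk2 lie far out on both axes, at about 3 and 2 log2 units, and Ifi44, Phf11d and Usp18 mainly on the vertical one, and genes beyond the axes are not drawn.

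Upstream of the effectors, interferon transcripts were close to the limit of detection. Of 21 interferon genes listed, 20 were measured, and 1 of them, Ifnz, was abundant enough to be tested, with 112, 40, 56 and 139 counts in tumours 1 to 4 (edgeR adjusted p = 1.00). The other 19 ligands together had 10, 7, 3 and 18 counts, and 9 of them had 0 counts in every library. Ifnb1 (interferon beta) had 6, 4, 2 and 1 counts, and Ifng (interferon gamma) had 0, 0, 0 and 7 counts. A count of 0 allows up to 3 counts, or 0.0706, 0.0865 and 0.0782 CPM in tumours 1 to 3. Counts of Ifnb1 were fewest in tumour 4 and, like those of Ifng, too low to be tested.

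Receptors and kinases were expressed in every tumour. At an adjusted p of 0.05 by edgeR 0 of 9 passed the test, against 3.63% of all genes tested. At an unadjusted p under 0.05 by edgeR there were also 0 of 9, against 8.74% of all genes. A list of 9 genes is too short to tell 0 from these shares. The type I receptor subunits Ifnar1 and Ifnar2 had 58.4, 82.0, 109 and 77.4 CPM and 37.0, 50.4, 45.3 and 60.1 CPM in tumours 1 to 4. Ifnar1 was highest in tumour 3, where the effectors were lowest. Ifngr1, a subunit of the gamma receptor, was the 1 gene of the 9 in the order of tumours 4, 2, 1 and 3. Its levels were 42.8, 46.9, 29.4 and 69.3 CPM in tumours 1 to 4, and 8.12% of all genes tested took that order.

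Of 7 transcription factors 3 took the order of the effectors, against 8.12% of all genes tested. None of the 7 passed the test (edgeR, adjusted p), against 3.63% of all genes. Stat2 had 58.3, 82.1, 32.2 and 135 CPM in tumours 1 to 4, Irf9 had 66.6, 87.1, 30.1 and 107 CPM, and Irf7, which amplifies type I interferon production, had 94.7, 121, 38.9 and 213 CPM (edgeR adjusted p = 0.365, 0.696 and 0.133). All 3 genes are themselves induced by interferon, and all were lowest in tumour 3. Irf3, Irf5 and Irf8 stayed within narrow ranges, and Irf1 was highest in tumour 4, at 119 CPM, and between 71.6 and 83.5 CPM elsewhere. Before adjustment over all genes, Stat2 and Irf7 were below 0.05 by edgeR, as were 8.74% of all genes tested.

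Of 6 negative regulators none passed the test (edgeR, adjusted p), against 3.63% of all genes tested. None had an unadjusted p under 0.05 by edgeR, against 8.74% of all genes. Socs1, which inhibits the Jak kinases, had 1.15, 1.96, 2.03 and 3.34 CPM in tumours 1 to 4. Ptpn2, a phosphatase of Jak1, had 141, 88.0, 101 and 39.2 CPM (edgeR adjusted p = 0.726). It was highest in tumour 1 and lowest in tumour 4, whereas Socs1 was highest in tumour 4. A link of either gene to the effectors was not tested.

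**Figure D4:**
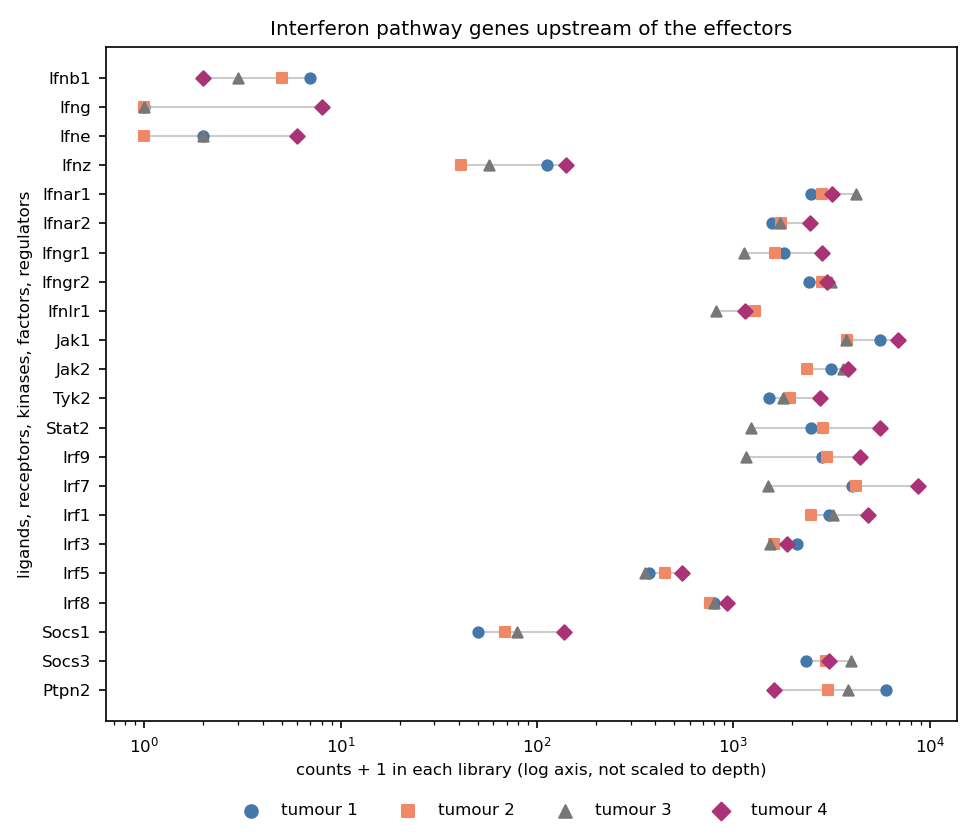
Counts plus 1 in each library (log axis, not scaled to depth) of interferon ligands, receptors, kinases, transcription factors and negative regulators, with 1 point per tumour. Ifnb1, Ifng and Ifne have at most 7 counts in any library, and Stat2, Irf9 and Irf7 are lowest in tumour 3.

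Markers of cell types that can also express these genes were summed in each tumour. The 4 T cell markers (Cd3e, Cd3d, Cd4 and Cd8a) summed to 2.33, 4.10, 1.95 and 4.80 CPM in tumours 1 to 4. This was the same order of tumours as the effectors. Singly, 2 of the 4, Cd3e and Cd8a, took that order, as did 8.12% of all genes tested. Both had few reads, with 10, 23, 2 and 32 counts for Cd3e and 28, 53, 23 and 78 for Cd8a. The 3 NK cell markers summed to 0.659, 0.548, 0.417 and 1.10 CPM. Of these 3, Gzma took that order, with 7, 9, 3 and 29 counts. Cd3e and all 3 NK cell markers failed the filter on low counts. The part of T and NK cells in the effectors' levels was not tested. No other marker list had that order. Macrophage markers summed to 307, 467, 352 and 377 CPM, and Ptprc, the pan-leukocyte gene, had 67.2, 93.3, 78.3 and 75.8 CPM, both highest in tumour 2, as were 4 of the 5 macrophage markers singly. Neutrophil markers were highest in tumour 3, at 97.2 CPM against 17.6 to 57.8 CPM elsewhere, and so were 3 of the 4 singly, all but S100a8. Markers of plasmacytoid dendritic cells, known as strong producers of interferon alpha, summed to 2.80, 0.836, 2.50 and 1.68 CPM, but did not move together. In tumour 3 most of the sum was Cox6a2 (1.93 CPM), while Siglech had 2.09, 0.346, 0.495 and 0.779 CPM in tumours 1 to 4 and Ccr9 was lowest in tumour 3 (0.0782 CPM). Conventional dendritic cell markers, mostly Zbtb46, summed to between 5.94 CPM in tumour 2 and 10.2 CPM in tumour 4, and the 2 B cell markers (Cd79a and Ms4a1) to between 0.260 CPM in tumour 2 and 0.600 CPM in tumour 3. Endothelial markers were highest in tumour 1 (139 CPM), and so were Pecam1 and Cdh5 but not Kdr. The fibroblast sum was highest in tumour 4 (1376 CPM), of which Col1a1 made up 1326 CPM, whereas Pdgfra was highest in tumour 3 and Dcn in tumour 2. The adipocyte sum was highest in tumour 3 (91.2 CPM) through Fabp4 (90.9 CPM), whereas Adipoq and Plin1 were highest in tumour 2 (3.72 and 1.36 CPM). Of the markers tested, only S100a9 and Fabp4 passed (edgeR adjusted p = 0.0183 and 0.000671), as did 3.63% of all genes tested. Both were highest in tumour 3.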

How the data were processed

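RNA of 4 mammary gland tumours of 1 genotype was sequenced after poly-A selection and random priming as paired reads of 100 bases, per the labels' protocols. The deposited table of the authors gives raw whole-number counts for each Entrez gene in each tumour. FastQC and the builds GRCm38 and mm10 are named in the submitters' processing notes, while aligner, counter, annotation and strand setting are not given in the sources used. Symbols and positions came from RefSeq GRCm38.p6, which matched 24480 of 28440 rows (97.9% of counts), exon lengths from GENCODE M21 (GRCm38). The number of sample columns not used was 0.

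The main tool was edgeR 4.0.16 (R 4.3.3). After filterByExpr (minimum 10 counts for a library of median size, in all 4, and 15 in total), libraries were scaled by TMM. With 1 group no contrast exists, so each gene's deviance from an intercept-only fit at the trended dispersion was compared with the chi-square distribution. Adjustment was over all 15808 genes tested. Log2 CPM used a prior count of 2. DESeq2 1.42.0 was an alternative. The members and lists were chosen with earlier results of these data known. All members are named, and pathway genes by a list. From the lists of transcription factors and B cell markers, 1 gene each is not reported here and was left out of the sums and counts. Transcripts were compared by exact stretches of 100 bases, on both strands, with those of other genes. Over 5% of stretches were shared in 7 members, namely Ifit3, Ifit3b, Herc6 (10.3%), Rtp4 (9.28%), Parp9, Dtx3l and Ifi35. How far this moved their counts was not tested.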

Additional observations from a re-analysis of the deposited data

Results flagged for a closer look

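Of 35 members and the tested pathway genes, 1 had a tumour far from the others on the log2 CPM scale by Dixon's ratio for 4 samples. Ifi27 had 48.5 CPM in tumour 3, and its gap to the nearest tumour was 0.956 of the whole range, above Dixon's critical value. Chance alone marks about 1 in 20 independent groups, and 1 mark among 58 genes is not above that rate. The genes share the same 4 tumours and are not independent, so chance was not tested.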

How the results depend on the processing

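The number of members past the test, 5, was 2 with Holm adjustment, 2 with a common dispersion and 0 by DESeq2's dispersion outliers, and 2 to 5 with 1 tumour left out. The number of all genes past it, 574, was 895 with no filter and 945 with the count minimum in 1 library. It was 198 with Holm adjustment, 681 with a common dispersion and 91 by DESeq2, and 367 to 417 with 1 tumour left out. The median log2 fold over members, 1.88, was 1.06 without tumour 3, the tumour that was lowest for most members, and 1.06 to 1.89 with any 1 tumour left out. With library size alone 26 members were lowest in tumour 3 and 20 had the order 4, 2, 1, 3, against 30 and 24. Under RLE scaling, no filter and prior counts of 0.5 and 5 these counts stayed at 30 and 24. In these settings and with library size alone, 29 members were highest in tumour 4. The median log2 difference of members between tumours 4 and 3 was 1.74 to 1.84 over these settings. Between tumours 2 and 1 it was 0.50 to 0.52. Usp18 also lost its call with library size alone (edgeR adjusted p = 0.0536) and with no filter (0.0584), and Usp18, Ifi44 and Phf11d with Holm adjustment and a common dispersion. The cause of these changes was not tested. No paired analysis was possible because the samples form 1 group. All 35 members passed the filter on low counts, whereas only 1 of the 20 interferon ligands measured did.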
